A study of Rattus norvegicus with 10 samples.

Results

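IGHV5-29 is one of the variable-region genes from which rats build antibody heavy chains, and it is described here in the spleens of 10 Wistar rats. The gene was chosen by its abundance in the animals immunized with HuD, so the difference in abundance between the antigens is given as a description, without a test. Its members were all productive reads whose first named IGHV gene was IGHV5-29, and there were 124180 of them among 1615896 productive reads (7.68%). A read is here 1 collapsed sequence of the deposited tables, whatever its copy number. All members carried the same allele name.

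Animals HuD1 to HuD5 had received recombinant human HuD, a neuronal RNA-binding protein, and animals DNP1 to DNP5 had received a keyhole limpet hemocyanin carrier modified with dinitrophenyl groups. All 10 animals were first given their antigen in Freund's complete adjuvant and then 3 boosts in incomplete adjuvant, and each contributed 1 library from whole spleen cells. The study describes the animals as littermates. No unimmunized or adjuvant-only animals were analysed, so neither group is an untreated baseline. Productive reads numbered between 60647 and 259834 per animal, the lowest in DNP3.

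A heavy-chain variable domain is joined from 1 IGHV, 1 IGHD and 1 IGHJ gene, and the junction is the third complementarity-determining region (CDR3). CDR1 and CDR2 lie within the IGHV gene, between the framework regions FR1, FR2 and FR3. During a response B cells divide into clones that share a junction, and somatic mutation then changes residues along the variable domain, most often in the CDRs. Spleen RNA mixes clone size with the amount of transcript per cell, which cannot be told apart here.

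The V region of IGHV5-29 was found in 2 main forms of 96 residues from FR1 to FR3. They differed at 3 positions of the IMGT numbering, written with the residue of the first form before the position and that of the second form after it: D8G in FR1, and D36N and Y38G in CDR1. The first form was read without any other change in 5468 reads and the second in 3173. Their CDR1 sequences are shown because they tell the forms apart, whereas the most frequent CDR2 was the same in both.

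CDR1, first form: GFTFSDYY

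CDR1, second form: GFTFSNYG

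CDR2, both forms: ISYDGSST

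The most abundant CDR3 of each animal is shown next, because these are the junctions most often read with IGHV5-29. In DNP1 TTRANLYFDY was equally abundant. Counted over all 10 animals and all IGHV genes, IGHV5-29 held between 41.5% and 81.8% of the reads of the 5 HuD sequences, and 54.2% of those of the DNP2 sequence. It held only 3.06% of the reads of ATSGYGYDGYPFAY, 1.64% of those of TTFEGTNA and 1.05% of those of ARPDY. These DNP sequences were thus mainly read with other genes. Of the HuD sequences, ARQDNYVGFAY (41.5%) and VRQGYLRDWYFDF (43.0%) were also read more often with the other IGHV genes together than with IGHV5-29.

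HuD1, 550 reads: ARLGIAAIGNWFSY

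HuD2, 778 reads: ARQDNYVGFAY

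HuD3, 1536 reads: VRSVFDY

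HuD4, 4043 reads: ARRHYGYTDYFDY

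HuD5, 804 reads: VRQGYLRDWYFDF

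DNP1, 20 reads: ATSGYGYDGYPFAY

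DNP2, 199 reads: ARHEATEGIDFDY

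DNP3, 2 reads: ARPDY

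DNP4, 20 reads: ARPDY

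DNP5, 15 reads: TTFEGTNA

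IGHV5-29 made up 8.89%, 8.86%, 15.8%, 19.5% and 8.66% of the productive reads in HuD1 to HuD5, against 0.361%, 6.14%, 0.0379%, 0.581% and 0.370% in DNP1 to DNP5. Each HuD animal was above each DNP animal, but DNP2 lay much nearer to the HuD animals than to the other DNP animals. The means were 12.3% ± 5.02 in HuD and 1.498% ± 2.60 in DNP animals (SD, n = 5 each), and without DNP2 the DNP mean was 0.337%. By these means IGHV5-29 ranked 1 among the IGHV genes in HuD and 17 in DNP animals, but IGHV5-25 followed closely in HuD with 12.2%, and without HuD4 the HuD mean was 10.6% for IGHV5-29 against 12.5% for IGHV5-25 and 10.8% for IGHV5-31. Within HuD1 to HuD5 it ranked 3, 1, 2, 1 and 4. Of the 81 IGHV genes with at least 100 reads, 4 (4.94%) were higher in every HuD than in every DNP animal: IGHV5-29, IGHV5-25, IGHV2S30 and IGHV2-47. The exact binomial 95% interval in DNP3, which had only 23 IGHV5-29 reads, ran from 0.0240% to 0.0569%, and it covers counting error only.

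The unproductive reads, which encode no complete chain, were distributed over the animals in much the same way. IGHV5-29 held 7.94%, 9.29%, 11.8%, 17.4% and 9.58% of them in HuD1 to HuD5, against 0.615%, 7.29%, 0.230%, 0.569% and 0.710% in DNP1 to DNP5. The groups did again not overlap, and DNP2 was again the highest DNP animal. The number of deposited copies per read was 1.66 ± 0.470 for IGHV5-29 in HuD animals and 1.32 ± 0.277 in DNP animals, and reads of a single copy made up between 77.3% and 100% of its reads per animal.

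**Figure D1:**
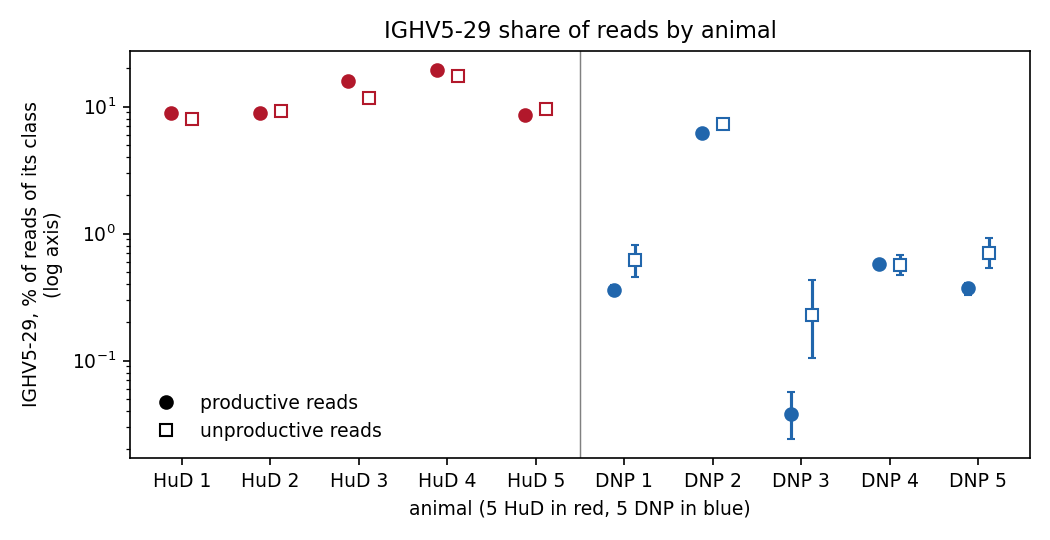
Share of reads assigned to IGHV5-29 in each animal, on a log axis in percent of the productive reads (filled circles) or of the unproductive reads (open squares). Bars are exact binomial 95% intervals and are mostly smaller than the symbols. The HuD animals (left) lie between 8.66% and 19.5% of productive reads, and of the DNP animals only DNP2, at 6.14%, lies above 0.581%.

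By the genes named, the assignment was less certain in the DNP animals with few reads. Reads that named IGHV5-29 and no other gene made up between 88.5% and 91.8% of its reads in HuD animals. In DNP2 they made up 86.4%, but in DNP1, DNP3, DNP4 and DNP5 between 43.5% and 48.1%. The gene named beside it was mostly IGHV5-7, in 8912 reads. Another 25510 productive reads named IGHV5-29 only after a different first gene and were not counted as members. In both groups most IGHV5-29 reads carried a CDR3 that was also read with another IGHV gene. They made up 83.5% to 91.2% of its reads in HuD and 76.1% to 91.3% in DNP animals.

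A related measure was added after these values had been seen: the share of IGHV5-29 reads whose CDR3 and IGHJ gene were read more often with IGHV5-29 than with any other IGHV gene in the same animal. It was 80.7%, 62.9%, 75.1%, 60.1% and 59.9% in HuD1 to HuD5, against 20.9%, 60.49%, 13.04%, 17.1% and 26.3% in DNP1 to DNP5. In the 4 DNP animals other than DNP2, most of the reads called IGHV5-29 thus carried a junction that was better represented under a different gene, which was most often IGHV5-7. For IGHV5-25, IGHV5-22 and IGHV5-31, the 3 other IGHV5 genes with the highest mean share of reads, the same measure lay between 47.1% and 96.6% in all 10 animals. The part of this share in the differences below was not tested.

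**Figure D2:**
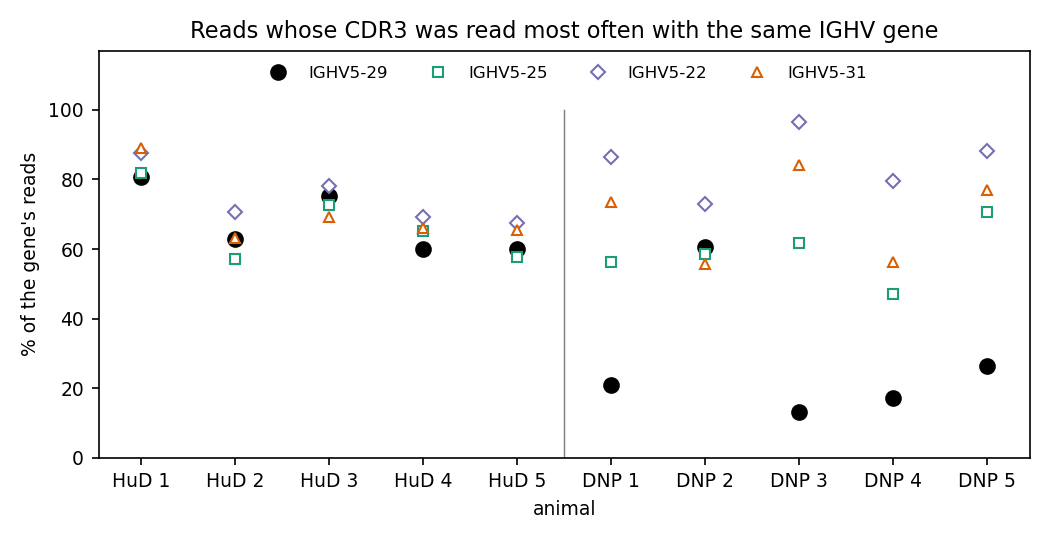
For each animal, the percent of a gene's productive reads whose CDR3 and IGHJ gene were found most often with that same gene, for IGHV5-29 (filled) and 3 other IGHV5 genes (open symbols). IGHV5-29 lies between 59.9% and 80.7% in the HuD animals (left) and at 60.49% in DNP2, against 13.04% to 26.3% in the other 4 DNP animals.

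The first form of the V region was nearly confined to HuD animals and DNP2 among these 10 libraries. Whether the forms are alleles or separate genes, and whether all animals carry both, was not tested. A difference in inherited genes between animals and one between antigens cannot be told apart here. This applies to the form shares and the values at positions 8, 36 and 38. It applies equally to the shares of productive and unproductive reads of IGHV5-29 and to the counts of shared CDR3 sequences. Reads with all 3 residues of the first form numbered 3928, 5066, 16679, 9540 and 4614 in HuD1 to HuD5, against 0, 2024, 1, 0 and 3 in DNP1 to DNP5. As a share of the IGHV5-29 reads this was 28.3%, 25.5%, 62.7%, 26.6% and 25.7% in the HuD animals and 26.6% in DNP2. HuD3 thus stood above the others, and DNP2 lay within the range of the HuD animals. Of the 503 and 1510 IGHV5-29 reads of DNP1 and DNP4 none had the first form.

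The second form was found in all 10 animals. Its share of the IGHV5-29 reads was 46.5%, 37.9%, 10.8%, 13.1% and 34.8% in HuD1 to HuD5, against 51.9%, 34.5%, 43.5%, 46.8% and 49.9% in DNP1 to DNP5. It was lowest in HuD3, where the first form was most frequent, and in HuD4, where 60.3% of the reads had neither set of residues.

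Unchanged copies of either form, counting also reads that lacked some residues, were a more restricted class. The first form was unchanged in 379, 1140, 2217, 1102 and 326 reads of HuD1 to HuD5, against 336 reads of DNP2 and none of the other DNP animals. The second form was unchanged in 662, 999, 513, 411 and 362 reads of HuD1 to HuD5, against 3, 240, 0, 4 and 1 reads of DNP1 to DNP5. Among unproductive reads the first form, complete from FR1 to FR3, occurred 22, 49, 69, 49 and 20 times in HuD1 to HuD5, against 16 times in DNP2 and in no read of the other DNP animals.

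**Figure D3:**
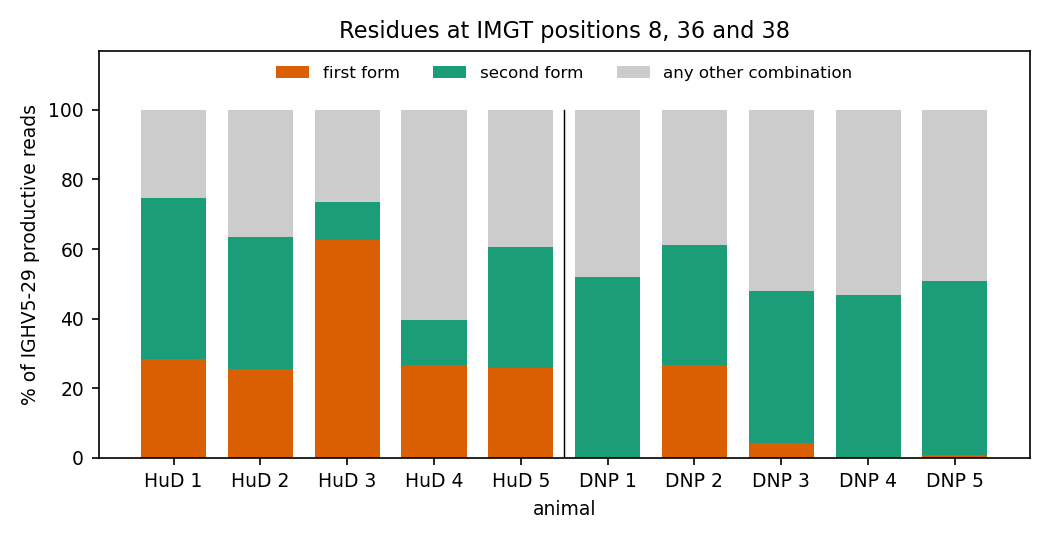
Percent of the IGHV5-29 productive reads of each animal with the 3 residues of the first form, those of the second form, or any other combination at IMGT positions 8, 36 and 38. The first form takes 25.5% to 62.7% in the HuD animals (left) and 26.6% in DNP2, and at most 4.35% in the other DNP animals, where that value is 1 read of 23.

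Variation along the V region was concentrated in the CDRs. Of 96 positions, 21 had another than the most frequent residue in over 10% of the reads, as a mean over the 10 animals. These included 6 of 8 positions of CDR2 and 5 of 8 of CDR1, but only 2 of 25 in FR1, 3 of 17 in FR2 and 5 of 38 in FR3. The mean share of another residue per position was 21.8% in CDR2 and 18.3% in CDR1, and 4.46%, 5.87% and 5.19% in FR1, FR2 and FR3. At 14 positions it was under 1%, none of them in a CDR. The highest in CDR1 were positions 36 and 38, at 43.7% and 52.6%, and the highest in FR1 was position 8, at 25.4%. These are the positions that separate the 2 forms. The other CDR1 positions lay between 1.92% and 14.8%.

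The 10 positions at which clonotypes varied most were 38 and 36 in CDR1, 64, 57, 63 and 58 in CDR2, 8 in FR1, 47 in FR2, and 85 and 92 in FR3. A clonotype is a distinct combination of IGHJ gene and CDR3 of an animal, counted once by its most frequent residue. Positions 8, 36 and 38 are those that separate the 2 forms, and residues other than Gly8 were found in 41.5% ± 19.9 of the HuD clonotypes and 7.49% ± 13.3 of the DNP clonotypes. Position 47, in FR2, went the other way. There, residues other than Thr were found in 10.9% ± 3.16 of the HuD and 43.0% ± 12.5 of the DNP clonotypes, and the groups did not overlap. At position 57 in CDR2 the shares were 21.4% ± 7.23 in HuD and 43.2% ± 15.7 in DNP animals.

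None of these positions passed the test between the antigens. Of 82 positions with at least 1% variation, 0 were called (0%) by two-sided exact permutation tests over the 10 animals with Benjamini-Hochberg adjustment, the smallest adjusted p being 0.108. The smallest p that 5 against 5 animals can give is 0.00794, which position 47 reached. Over 82 positions a single position at that p cannot pass 0.05, so no conclusion is drawn from the lack of calls. At an unadjusted p under 0.05 there were 31 positions, of which 4 varied more in HuD animals. The outcome rested on DNP2: without that animal 29 of 84 positions (34.5%) were called, 25 of them with more variation in the DNP animals and 4, position 8 among them, with more in the HuD animals.

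**Figure D4:**
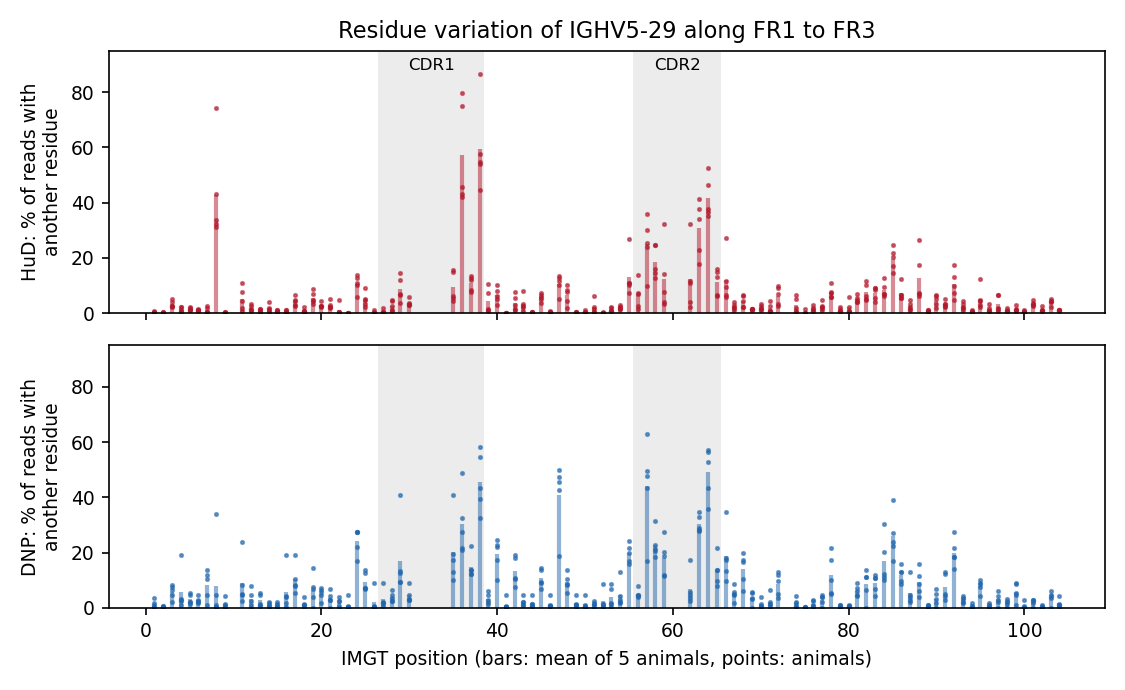
Percent of IGHV5-29 reads with another than the most frequent residue at each IMGT position of FR1 to FR3, in HuD (upper panel) and DNP animals (lower panel). Bars are means of 5 animals, points are single animals and grey bands mark CDR1 and CDR2. Within the framework regions position 8 is the highest mean in the HuD animals and position 47 in the DNP animals.

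Per clonotype, IGHV5-29 differed from its most frequent residues at 5.45, 5.12, 5.82, 6.49 and 6.87 positions in HuD1 to HuD5, against 7.68, 6.09, 10.1, 8.07 and 8.33 in DNP1 to DNP5. DNP2 lay among the HuD animals, and the other DNP animals lay above all of them. The mean was 5.95 ± 0.724 in HuD and 8.05 ± 1.44 in DNP animals (SD, n = 5 each), a difference of -2.10 with an exact permutation p of 0.0238 and an adjusted p of 0.0952 over 8 measures. Without DNP2 the difference was -2.59 and its adjusted p 0.0317. Leaving out 1 animal at a time gave adjusted p of 0.0317 to 0.159 in the exact permutation test, under 0.05 only without DNP2. Counted to the nearer of the 2 forms, an alternative added after the forms had been seen, the clonotypes differed at 4.51, 4.37, 3.81, 5.59 and 6.05 positions in HuD1 to HuD5, against 7.68, 5.31, 9.98, 8.07 and 8.29 in DNP1 to DNP5.

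The values of other IGHV5 genes also ran higher in DNP animals, which was not tested. The 3 IGHV5 genes named above, each set against its own most frequent residues, averaged 5.16 to 7.004 differences in HuD animals and 6.70 to 9.84 in DNP animals. Within animals, IGHV5-29 minus these genes was -0.0809 ± 0.571 (SD, n = 10), positive in 5 and negative in 5 animals, with a p of 0.654 in the exact sign-flip permutation test.

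IGHV5-29 was joined to all 4 IGHJ genes in every animal, mainly to IGHJ2, which is also the main IGHJ gene of the other IGHV genes. Of its clonotypes, 51.4% ± 3.65 in HuD and 51.1% ± 4.32 in DNP animals used IGHJ2, and 23.8% ± 1.41 in HuD and 25.0% ± 3.65 in DNP animals used IGHJ3. IGHJ4 followed with 12.999% ± 2.60 in HuD and 15.7% ± 5.33 in DNP animals. None of these differed beyond the spread between animals, the adjusted p in the exact permutation tests lying between 0.434 and 0.929.

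IGHJ1 was the exception in separating the groups by clonotypes. It was used by 12.96%, 12.1%, 12.7%, 10.7% and 10.7% of the clonotypes in HuD1 to HuD5, against 8.72%, 9.67%, 9.09%, 9.11% and 4.15% in DNP1 to DNP5. The groups did not overlap, and the mean difference was 3.68 percentage points. The value of DNP3 came from only 22 clonotypes, so the lack of overlap is sensitive to single clonotypes there. The exact permutation p of 0.00794 was the smallest that 5 against 5 animals can give, and the adjusted p over 8 measures was 0.0635, which did not pass 0.05. A measure that alone reaches the smallest p cannot pass 0.05 after this adjustment, so the test could not call IGHJ1 by itself. Without DNP2 the adjusted p was 0.0317, at a difference of 4.06 points. Leaving out 1 animal at a time gave adjusted p of 0.0317 to 0.127 in the exact permutation test, under 0.05 only without DNP2. Counted by reads in place of clonotypes, the groups overlapped in IGHJ1, with 7.37% in HuD1 and 9.98% in HuD2 against 10.1% in DNP4.

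Compared with the clonotypes of all other IGHV genes in the same animal, the pairing of IGHV5-29 with IGHJ genes was much the same. The mean difference over the 10 animals was 0.0794 percentage points for IGHJ1, -0.666 for IGHJ2, 1.10 for IGHJ3 and -0.510 for IGHJ4, with adjusted p between 0.453 and 0.871 in exact sign-flip permutation tests. For IGHJ1 the mean covered opposite directions: IGHV5-29 was above the other genes by 1.48 to 2.04 points in all 5 HuD animals, and below them in all 5 DNP animals, where the differences ran from -5.20 to -0.0775 points.

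**Figure D5:**
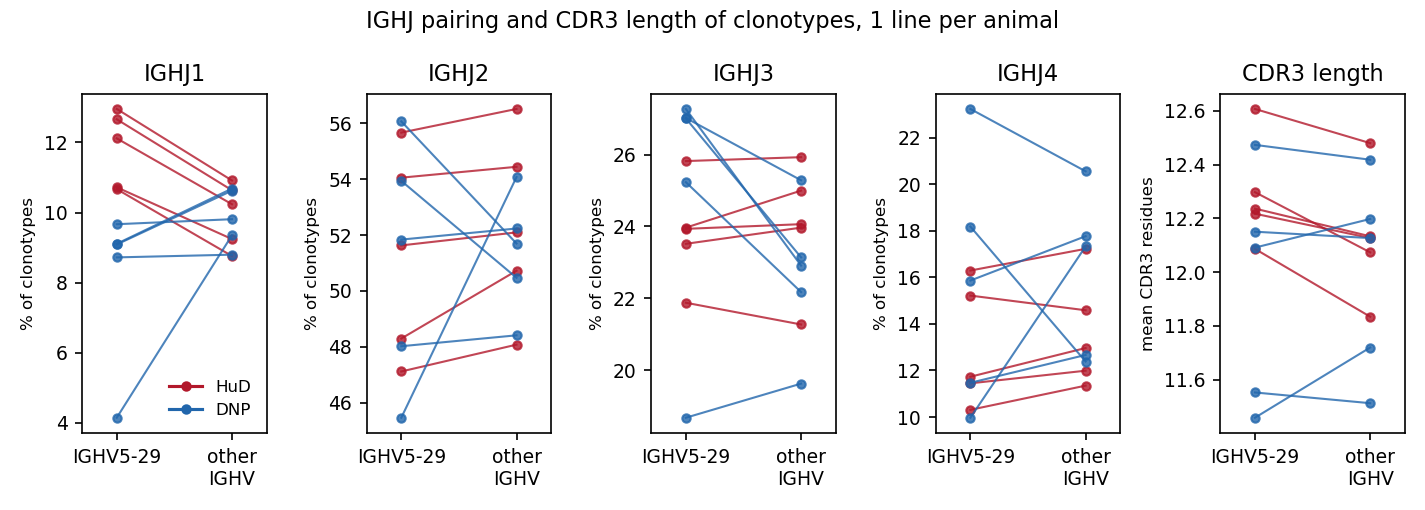
Percent of clonotypes using each IGHJ gene, and mean CDR3 length in residues, for IGHV5-29 (left in each panel) and all other IGHV genes (right) of the same animal, with HuD animals in red and DNP animals in blue. Axes do not start at 0. For IGHJ1 all HuD lines fall from IGHV5-29 to the other genes, whereas no DNP line does.

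Within the gene, the 2 forms were not joined in the same proportions, which is given as a description because the forms were chosen from these reads. In the 6 animals with at least 20 clonotypes of each, clonotypes of the first form used IGHJ1 in 13.5%, 13.7%, 13.8%, 11.9% and 13.4% of HuD1 to HuD5 and in 11.8% of DNP2. Those of the second form used it in 11.4%, 11.2%, 8%, 8.17% and 8.29% of HuD1 to HuD5 and in 9.20% of DNP2. The first form was thus higher in each of these animals. In DNP1, DNP4 and DNP5, where clonotypes of the first form were nearly absent, the second form used IGHJ1 in 9.14%, 9.03% and 5.26%. Within the second form alone, HuD and DNP animals thus overlapped in the use of IGHJ1.

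The CDR3 of IGHV5-29 clonotypes had a mean length of 12.3 ± 0.194 residues in HuD and 11.9 ± 0.428 in DNP animals, a difference of 0.344 residues with an adjusted p of 0.279 in the exact permutation test. Its mean net charge, counted as Lys and Arg minus Asp and Glu, was -0.123 ± 0.0816 in HuD and -0.250 ± 0.104 in DNP animals, with an adjusted p of 0.111 in the exact permutation test. Against the other IGHV genes of the same animal the CDR3 was longer by 0.0548 residues and its charge higher by 0.0575, each in the positive direction in 8 of 10 animals. Neither passed the exact sign-flip permutation test, with adjusted p of 0.543 for length and 0.453 for charge.

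Productive reads made up 92.4% ± 1.59 of the IGHV5-29 reads with a functionality call in HuD and 86.2% ± 8.29 in DNP animals. The difference of 6.22 points had an adjusted p of 0.111 in the exact permutation test, and DNP3, with 23 productive and 9 unproductive reads, was the lowest at 71.9%. Without DNP3 the difference was 2.64 points.

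Clones of IGHV5-29 were numerous and mostly small. The animals had 2455, 5492, 4086, 6473 and 4346 distinct CDR3 sequences in HuD1 to HuD5, against 319, 2652, 22, 913 and 241 in DNP1 to DNP5, and between 69.3% and 77.6% of them in HuD and between 75.4% and 95.5% in DNP animals were read once. At an equal depth of 339 reads, which leaves out DNP3, the expected number of distinct CDR3 sequences was 180, 245, 201, 199 and 227 in HuD1 to HuD5, against 231, 241, 273 and 241 in DNP1, DNP2, DNP4 and DNP5. The ranges overlapped, and the highest value was that of DNP4.

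The largest clone of HuD4, with the CDR3 ARRHYGYTDYFDY, held 11.3% of its IGHV5-29 reads, and the largest clones of the other HuD animals held 3.91% to 5.77%. Across animals this CDR3 was joined to IGHJ2 in 98.9% of its reads. Its most frequent CDR1 was GFTFSDYG, which mixes residues of both forms, and its most frequent CDR2 ISYGDSST. Of its reads, 4.61% had the residues of the first form and 8.96% those of the second. The largest CDR3 of DNP2, ARHEATEGIDFDY, held 2.62% of its reads, and 75.9% of these had the residues of the second form. In contrast, VRSVFDY of HuD3 had those of the first form in 85.4% of its 1536 reads.

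CDR3 sequences close to these large clones recurred in other HuD animals. ARRHYGYTDYFDY was also read 687 times in HuD5, 169 times in HuD1 and once in DNP3. HuD1 had in addition 341 reads of a CDR3 with the change Y5F, counted from the first CDR3 residue. For ARLGIAAIGNWFSY of HuD1, HuD2 had 379 reads of a CDR3 that differed by I5T and A6E. For VRQGYLRDWYFDF of HuD5, HuD4 had 1279 reads of a CDR3 that differed by V1A and Q3A. The neighbours of these 3 clones are shown because they join pairs of animals, and they were selected after their values had been seen.

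Near ARRHYGYTDYFDY, in HuD1: ARRHFGYTDYFDY

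Near ARLGIAAIGNWFSY, in HuD2: ARLGTEAIGNWFSY

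Near VRQGYLRDWYFDF, in HuD4: ARAGYLRDWYFDF

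Apart from the DNP3 read, no DNP read of the gene had a CDR3 with the same IGHJ gene within 2 residues of these 3. VRSVFDY of HuD3 had such neighbours in 1 read of HuD4, 40 reads of HuD5 and 2 reads of DNP2. No such neighbour was found in any other animal for ARQDNYVGFAY of HuD2, nor for ATSGYGYDGYPFAY, ARHEATEGIDFDY and TTFEGTNA of DNP1, DNP2 and DNP5. These searches covered the reads of the gene only, which numbered 114205 in HuD and 9975 in DNP animals, 7600 of them in DNP2. The DNP animals thus had far fewer reads in which a neighbour could be found. The part of this depth in the absence of neighbours was not tested.

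Counted by distinct sequence, exact sharing of the CDR3 sequences read with IGHV5-29 was rare. Of 26549 distinct sequences, 26208 were found in 1 animal and 341 in at least 2, and none in all 10. The 341 shared sequences held 15.4%, 6.35%, 3.53%, 23.8% and 13.2% of the IGHV5-29 reads in HuD1 to HuD5. In DNP1 to DNP5 they held 5.96%, 7.18%, 17.4%, 3.71% and 1.47%. The shared ones were shorter, with a mean of 9.28 ± 2.75 residues against 12.4 ± 2.99 for those of a single animal (SD over sequences, which are not replicates). Of the 341, 251 were found in at least 2 HuD and no DNP animals, 9 in at least 2 DNP and no HuD animals, and 81 in both groups. DNP2 held 66 of these 81. The animals differed in the number of sequences that could be shared, and these counts were not tested. Of 88308 distinct sequences from FR1 to FR4, 50 were found in at least 2 animals.

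The most widely found CDR3 sequences were ARHNSGYFDY and ARRGYFDY, each in all 5 HuD animals and DNP2. Another 6 were found in 5 animals, of which ASRDY, ATHNSGYFDY and ARHNSGYGVMDA had the most reads. ARHNSGYFDY was read 15, 33, 11, 25 and 1 times in HuD1 to HuD5 and 8 times in DNP2, and ATHNSGYFDY 322, 1, 1, 0 and 55 times in HuD1 to HuD5 and 18 times in DNP2. Both used mainly IGHJ2.

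Found in all 5 HuD and no DNP animals were 3 sequences. ASRDY had 319, 200, 2, 41 and 1 reads in HuD1 to HuD5, 81.2% of them with the residues of the first form. ARHNSGYGVMDA had 1, 6, 2, 32 and 23 reads, and ARHNSGYVMDA 1, 1, 2, 7 and 2 reads. The separation of ASRDY did not extend to its neighbours, since CDR3 sequences of the same IGHJ gene within 2 residues of it were read 22, 26, 2, 20 and 1 times in DNP1 to DNP5. In DNP3, DNP4 and DNP5 these reads were all of ARPDY, which differs from ASRDY at 2 of 5 residues.

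ARPDY was the only sequence found in all 5 DNP and no HuD animals, with 15, 3, 2, 20 and 1 reads in DNP1 to DNP5. Its separation did not extend to its neighbours either, since CDR3 sequences of the same IGHJ gene within 2 residues were read 321, 242, 82, 132 and 9 times in HuD1 to HuD5, against 18, 28, 0, 6 and 1 times in DNP1 to DNP5. ASRDY was itself such a neighbour, with 315 of the 321 reads in HuD1 and 199 of the 242 in HuD2. Over all IGHV genes ARPDY had 3914 reads with 34 first-named genes, of which IGHV5-29 held 1.05%. Of the 3 sequences found in all HuD and no DNP animals, IGHV5-29 held 61.3% of the reads of ASRDY and 61.9% of those of ARHNSGYVMDA, but 12.0% of those of ARHNSGYGVMDA.

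The genes whose share of reads over the 10 animals was most like that of IGHV5-29 were IGHV2S61, IGHV2S30 and IGHV2-45. The likeness was measured on log2(RPM + 1), with RPM the reads of a gene scaled to the productive reads of the animal, and gave Pearson r of 0.95, 0.94 and 0.94, as a description over animals that fall into separate levels. IGHV2S61 had 177, 341, 723, 382 and 3614 reads in HuD1 to HuD5, against 1, 173, 0, 2 and 1 in DNP1 to DNP5. IGHV2-45 had 679, 2021, 245, 820 and 525 reads in HuD1 to HuD5, against 0, 188, 0, 6 and 0 in DNP1 to DNP5. Both were thus read in DNP2 at numbers that the other DNP animals did not approach, as the first form of IGHV5-29 was. IGHV5-25, the IGHV5 gene with the highest mean share, had 15.1%, 8.08%, 17.6%, 11.2% and 9.05% of the productive reads in HuD1 to HuD5, against 7.03%, 6.23%, 2.76%, 7.61% and 8.02% in DNP1 to DNP5, and DNP2 lay among the DNP animals for this gene.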

How the data were processed

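Splenocyte RNA was reverse transcribed with primers in the heavy-chain constant region that carried a short molecular tag, amplified by multiplex PCR and sequenced in 1 MiSeq run. The authors merged read pairs with PEAR, grouped them with MIGEC (minimum count 1, the tag supplemented with 10 bases of CDR3) and annotated them with High-VQuest. No version or germline release is stated for these tools. The deposited tables give 1 collapsed amino acid sequence per line with its copy number, a count, which was used only in an alternative. No germline sequence of IGHV5-29 was used.

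Members and lists were chosen with earlier results of these data known. Named sequences followed a rule: the 3 other IGHV5 genes with the highest mean share, the 3 genes with the highest correlation, the most abundant CDR3 of each animal, the 5 found in most animals, those in all animals of 1 antigen only, and the 10 most variable positions. Clonotypes were compared by exact two-sided permutation over 252 sets of 5 animals (smallest p 0.00794) or over 1024 sign flips (smallest p 0.00195), with Benjamini-Hochberg adjustment over 8 measures, in Python 3.11.15 with numpy, pandas and scipy. Tests were checked on simulated data. Each animal gave 1 library, so p-values measure the spread between animals. Sequences of 15 or more residues were not printed.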

Additional observations from a re-analysis of the deposited data

Results flagged for a closer look

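In groups of 5 animals, 1 animal stood apart by Dixon's criterion in 9 of 36 groups of values examined. For independent, normal and equally precise values chance gives about 1 in 20. These values are not of that kind, since the IGHJ shares depend on each other and the DNP animals had 22 to 2720 clonotypes. The count is therefore not set against chance. The clonotypes of DNP2 stood apart from those of the other DNP animals at position 8, with another residue in 31% against 0% to 5.00%, and at position 47, with 21.2% against 45.0% to 52.7%. HuD3 stood apart from the other HuD animals at the same position 8, with 76.6% against 27.7% to 37.6%, and at position 38, with 83.7% against 44.1% to 54.1%. Both positions separate the 2 forms of the V region.

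DNP5, which had 241 clonotypes, stood apart among the DNP animals in its use of IGHJ1 (4.15% against 8.72% to 9.67%) and of IGHJ3 (18.7% against 25.2% to 27.3%). Its mean CDR3 charge was -0.427 against -0.243 to -0.171, and another residue at position 58 was found in 37.8% of its clonotypes against 20.2% to 23.8%. DNP3, with the fewest reads, was lowest in the productive share, 71.9% against 86.5% to 92.3%.

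The difference between IGHV5-29 and the other IGHV genes of the same animal itself differed between the antigens for 2 of 8 measures. For IGHJ1 it was 1.87 percentage points in HuD and -1.71 in DNP animals, 3.57 points apart. For CDR3 length it was 0.160 residues in HuD and -0.0498 in DNP animals, 0.209 residues apart. The negative DNP mean for length rested on DNP1: without it the mean was 0.00305 and the difference 0.156. Without DNP5 the IGHJ1 values were 2.70 points apart. The exact permutation p was 0.00794 and the adjusted p 0.0317 for both. In an alternative added after the data had been seen, leaving out any 1 HuD animal raised the adjusted p to between 0.0635 and 0.0952 for both measures, and leaving out any 1 DNP animal gave 0.0212 to 0.0317. The clonotypes of 4 DNP animals are few or mostly better represented under other IGHV genes, and the part of this in both differences was not tested.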

How the results depend on the processing

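Of 429 values recomputed under an alternative setting, 390 kept their direction and side of the threshold, 28 changed sign without passing the threshold under either setting, 9 passed a threshold they had missed and 2 counts moved by over 1.5 times. With reads in place of clonotypes the antigen difference was 0.315 points for IGHJ3 and 0.281 at position 63, and IGHV5-29 minus other genes -0.112 for IGHJ1, 0.0195 for IGHJ4 and -0.00118 for charge. With clonotypes of at least 2 reads, the antigen difference was -11.6 for IGHJ2, 9.64 for IGHJ3, and -1.63, 1.07 and 2.99 at positions 38, 85 and 92. IGHV5-29 minus other genes was then -0.784 for IGHJ1, 3.78 for IGHJ2, -2.41 for IGHJ3 and -0.652 residues for CDR3 length. With reads naming IGHV5-29 alone it was -0.711 for IGHJ1 and 1.28 for IGHJ4. In the setting of at least 2 reads, DNP3 kept only the clonotype of ARPDY, which has 5 residues and IGHJ2. The cause of these changes of sign was not tested.

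Joining clonotypes that differ by 1 CDR3 residue gave a CDR3 of IGHV5-29 longer than that of other IGHV genes by 0.0956 residues with an adjusted p of 0.0312, the cause was not tested. Requiring 2 reads per animal left 99 CDR3 sequences shared by at least 2 animals in place of 341, as the construction implies.

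Leaving out 1 animal at a time gave differences between the antigens of 2.68 to 4.06 points for IGHJ1, -2.59 to -1.59 for residue differences and 0 to 29 called positions, the largest in size each time without DNP2. Without DNP2, positions 64, 57, 47, 8 and 85 were among those called. The share of productive reads differed by 9.06 to 12.0 points, and 205 to 341 shared CDR3 sequences were counted, the lowest without HuD4. For IGHV5-29 minus other genes, CDR3 length ranged from 0.0329 to 0.08997 residues, IGHJ1 from -0.139 to 0.666, IGHJ2 from -1.23 to 0.218, IGHJ4 from -1.21 to 0.251 and residue differences from -0.172 to 0.0275. The antigen difference for IGHJ2 ranged from -1.12 to 1.54.

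The replicate numbers name different animals and do not pair them: deviations of same-numbered animals correlated at -0.134 to 0.226, over 0.1 in 1 of 5 pairs, and 2 of 10 animals correlated best with their own number. With the replicate number as a block the IGHJ1 difference of 3.68 points had an exact permutation p of 0.0625, the smallest possible there. No position could therefore be called in that setting whatever the data, and 0 were called. With 23 reads, as in DNP3, 1 read moves a share of reads by 4.35 points.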

Other observations

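The genes whose abundance ran most opposite to IGHV5-29 over the 10 animals, named after their values had been seen, were IGHV5S11, IGHV1-43 and IGHV2-8. IGHV5S11 had 115, 100, 140, 123 and 139 productive reads in HuD1 to HuD5, against 5298, 68, 978, 3434 and 1421 in DNP1 to DNP5. IGHV1-43 had 370, 643, 613, 781 and 2719 reads in HuD1 to HuD5, against 7928, 483, 2564, 15550 and 1790 in DNP1 to DNP5. By share of productive reads DNP2 lay within the range of the HuD animals for both genes.

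The most frequent IGHD gene of IGHV5-29 reads was IGHD1-11, with a mean of 14.3% of the reads with an IGHD call against 12.4% in the other IGHV genes. IGHD1-9 had 8.25% against 5.03%, higher in 6 of 10 animals, and reached 21.6% in HuD4. These shares were not tested.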
